A study of Mus musculus with 2 samples.

Results

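Simple epithelia are built on a small set of genes, and 9 of them were followed here in mouse embryonic stem cells: the keratins Krt7, Krt8, Krt18 and Krt19, the claudins Cldn4, Cldn6 and Cldn7, and the epithelial genes Perp and Sfn. They were taken by symbol from a table of 32285 genes, in which all 9 were found. Keratin filaments form only when a type II keratin (Krt7, Krt8) pairs with a type I keratin (Krt18, Krt19), and Krt8 with Krt18 is the pair that the early embryo makes first, in trophectoderm and later in primitive endoderm. Claudins are the membrane proteins that seal tight junctions. Perp is a desmosome membrane protein and Sfn is the adaptor 14-3-3 sigma, and both are known p53 targets.

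Cells labelled R1, an embryonic stem cell line derived from a male mouse embryo, were cultured for 72 h in N2B27 medium in 2 ways, and 1 droplet library was made from each. The first, LB, held LIF and BMP4 on gelatin. The second, LBPXRS, was grown on fibronectin and added SB431542, an inhibitor of NODAL and activin receptors, the tankyrase inhibitor Xav939, the MEK inhibitor PD0325901 and a compound written as Resorcyclic lactone in the labels, so LIF and BMP4 are common to both libraries. Inhibitors and coating changed together and their effects cannot be told apart. By its title, the study is about how far FGF, TGF-beta and WNT signalling hold back a totipotent state driven by BMP4. With 1 library per condition there is no replicate and no test across samples, and intervals below are 95% intervals that cover counting error only.

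After cells with under 1000 detected genes or over 10% mitochondrial UMIs (unique molecular identifiers, each counting 1 captured RNA molecule) were left out, LB held 1783 cells with a median of 25418 UMIs and LBPXRS 2705 cells with a median of 19058. The libraries stood apart in more than their medium. Of the UMIs of Ftl1 and its processed copy Ftl1-ps1 together, Ftl1-ps1 took 47.6% in LB and 0.410% in LBPXRS. Transcripts of 4 Y-linked genes summed to 63.1 CPM in LB (counts scaled to 1000000 UMIs) and to 1 UMI in the whole of LBPXRS. Genes of chromosome 11, which carries Krt19 and Cldn7, had a median log2 ratio of -0.63 against -0.17 over all 7661 genes with at least 10 CPM in either library, and those on the chromosomes of the other members had medians between -0.11 and 0.0057. The near absence of Y-linked UMIs in LBPXRS stands beside a label that names R1, a male line, and its cause was not tested. In each comparison of the libraries below, the medium and a difference between the cells themselves, in origin or otherwise, cannot be told apart. The part of these differences in the values below was not tested. The labelled cell type was present: the 12 naive pluripotency markers summed to 3526 CPM in LB and 6760 CPM in LBPXRS. The libraries shared 8 barcodes among kept cells.

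Upstream sequences of 4 members are shown because these genes separate in the data: Krt8 and Krt18 lie next to each other and varied together, Cldn4 was the 1 counted member with a higher level in LBPXRS, and Sfn was far lower in LBPXRS whether all LB cells or only naive ones were taken. Each is the 250 bases before the RefSeq start in GRCm38.p6, written on the gene's own strand, with matches to a fixed set of motifs in capitals. The motifs, searched on both strands, were TGANTCA (AP-1), GCCNNNGGC (TFAP2), AACCNGTT (GRHL) and GGGCGG (SP and KLF). No matches overlap in these 4 windows. The Krt8 and Krt18 windows end at RefSeq starts that lie inside the spans of the GENCODE annotation used further on.
Krt8: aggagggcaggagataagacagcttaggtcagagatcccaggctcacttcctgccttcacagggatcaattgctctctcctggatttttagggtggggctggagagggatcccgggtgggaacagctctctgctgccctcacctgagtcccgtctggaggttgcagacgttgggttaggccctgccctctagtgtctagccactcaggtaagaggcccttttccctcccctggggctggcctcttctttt
Krt18: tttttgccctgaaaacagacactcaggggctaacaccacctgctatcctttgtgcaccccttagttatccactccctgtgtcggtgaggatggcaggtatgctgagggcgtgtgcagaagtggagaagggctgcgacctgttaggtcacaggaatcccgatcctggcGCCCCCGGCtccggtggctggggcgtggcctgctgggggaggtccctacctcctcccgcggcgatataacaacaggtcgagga
Cldn4: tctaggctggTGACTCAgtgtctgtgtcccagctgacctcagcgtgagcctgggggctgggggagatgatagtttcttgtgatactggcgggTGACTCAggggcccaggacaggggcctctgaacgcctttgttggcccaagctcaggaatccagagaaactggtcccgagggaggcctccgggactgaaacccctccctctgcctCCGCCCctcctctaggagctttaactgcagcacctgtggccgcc
Sfn: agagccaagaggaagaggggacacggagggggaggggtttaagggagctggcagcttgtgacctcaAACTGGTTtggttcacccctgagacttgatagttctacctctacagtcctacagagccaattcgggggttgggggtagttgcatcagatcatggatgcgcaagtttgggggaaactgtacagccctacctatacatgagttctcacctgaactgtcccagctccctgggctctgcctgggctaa
The Krt8 window, chr15:102004343-102004592 on the minus strand, holds none of the 4 motifs, and the Krt18 window, chr15:102027966-102028215 on the plus strand, holds 1 TFAP2 match. The Cldn4 window, chr5:134946935-134947184 on the minus strand, holds 2 AP-1 matches and 1 SP and KLF match. The Sfn window, chr4:133602169-133602418 on the minus strand, holds 1 GRHL match. Among 32851 RefSeq promoter windows of this length, 6.75% hold AP-1, 13.7% TFAP2, 1.79% GRHL and 32.7% SP and KLF. A match describes letters and is not a measured site.

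In the GENCODE M21 annotation Krt8 spans chr15:101996698-102004482 (minus strand) and Krt18 spans chr15:102028180-102032027 (plus strand), a gap of 23697 bases. Krt7, in the same type II cluster, lies at chr15:101411043-101430313 (plus). Krt19 lies at chr11:100140810-100148665 (minus), Cldn7 at chr11:69964779-69967885 (plus), Cldn4 at chr5:134945119-134946934 (minus), Cldn6 at chr17:23679249-23682446 (plus), Perp at chr10:18845020-18857073 (plus) and Sfn at chr4:133600556-133602168 (minus). All 9 are protein-coding. The last 500 bases of the Krt7 transcript share a stretch of at least 90% identity with transcripts of 81 other genes, so its low counts are uncertain. Krt8 overlaps Gm36026 and Krt7 overlaps Gm671, both on the opposite strand.

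The keratin pair Krt8 and Krt18 had the highest levels of the 9 genes in LB and was low in LBPXRS. Krt8, the type II partner, had 8543 UMIs in LB, or 188 CPM (184 to 192), and 540 UMIs in LBPXRS, or 10.4 CPM (9.56 to 11.3). Krt18, its type I partner, had 8369 UMIs, or 184 CPM (180 to 188), and 794 UMIs, or 15.3 CPM (14.3 to 16.4). Both intervals lie far apart between the libraries, with Krt8 18.03 times as high in LB (16.5 to 19.7) and Krt18 12.01 times (11.2 to 12.9). Krt19, the type I keratin that can replace Krt18, differed most: 4865 UMIs or 107 CPM in LB (104 to 109.99) against 87 UMIs or 1.68 CPM in LBPXRS (1.34 to 2.07), a ratio of 63.7 (51.5 to 79.7). These ratios depend on 1 LBPXRS cell, described further on, which held 53 of the 87 Krt19 UMIs: without it they were 163 for Krt19 (116 to 236), 39.9 for Krt8 (35.1 to 45.5) and 20.7 for Krt18 (18.8 to 22.8). Krt7 was low in both, with 6.07 CPM (5.37 to 6.83) in the first library and 7.18 CPM (6.47 to 7.94) in the second, under the 10 CPM used for counting changes.

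The claudins split. Cldn7, a claudin of many simple epithelia, stood at 111 CPM (108 to 114) in LB against 26.8 CPM (25.4 to 28.2) in LBPXRS. Cldn6, a claudin of embryonic epithelia and pluripotent cells, had 47.6 CPM (45.6 to 49.6) and 7.02 CPM (6.32 to 7.78). Cldn4 ran the other way, with 1019 UMIs or 22.4 CPM (21.05 to 23.8) in LB against 3200 UMIs or 61.7 CPM (59.6 to 63.9) in LBPXRS, 2.76 times as high (2.57 to 2.96). Sfn stood at 94.3 CPM (91.5 to 97.1) in LB against 7.22 CPM (6.503 to 7.99) in LBPXRS. Perp had 30.2 CPM (28.6 to 31.9) and 11.7 CPM (10.8 to 12.7). Among the genes with at least 10 CPM in either library, Cldn4 was thus the exception to lower levels in LBPXRS.

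On the scale log2((CPM in LBPXRS + 1)/(CPM in LB + 1)), whose pseudocount understates the change of low genes, 7 of the 8 members with at least 10 CPM in either library were at least 2-fold lower in LBPXRS, where 10.4% of all 7661 such genes were. These were Krt19 at -5.33, Krt8 at -4.05, Sfn at -3.54, Krt18 at -3.50, Cldn6 at -2.60, Cldn7 at -2.01 and Perp at -1.29. The eighth, Cldn4, was at 1.42, and 7.98% of all such genes were at least 2-fold higher. Krt7, at 0.21, passed no threshold. The members were proposed with results of these data known, so these counts describe them and are no independent support for a pattern.

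**Figure D1:**
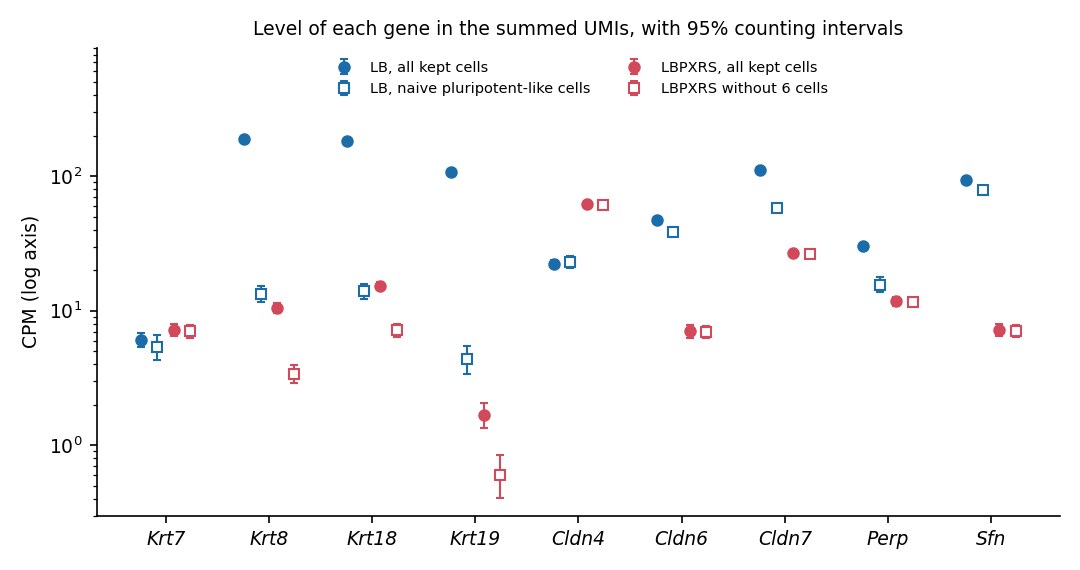
CPM on a log axis of each of the 9 genes in LB (all kept cells, and naive pluripotent-like cells only) and in LBPXRS (all kept cells, and without the 6 cells with 10 or more Krt8 and Krt18 UMIs); points are summed UMIs and bars are 95% Poisson intervals. Krt8 stands at 188 CPM in LB, 13.3 in its naive-like cells, 10.4 in LBPXRS and 3.38 without the 6 cells, while Cldn4 is the gene with a clearly higher level in LBPXRS.

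Shares of cells with at least 1 UMI, taken after thinning each cell to 5000 UMIs so that depth is the same, put the same members higher in each library, with Krt7 alike in both. In LB 26.9% of 1733 cells had Krt8 (24.9 to 29.1) and in LBPXRS 1.72% of 2621 cells (1.26 to 2.29); without thinning these were 50.6% and 6.10%. Krt19 had a UMI in 20.02% of LB cells (18.2 to 22.0) and in 6 LBPXRS cells, or 0.229% (0.0840 to 0.498). Cldn4 had a UMI in 9.29% (7.96 to 10.8) of the LB cells and in 24.2% of LBPXRS cells (22.6 to 25.9). Cldn7 was the member found most widely in LB, in 31.6% of cells against 11.9% in LBPXRS. Sfn was found in 23.4% and 3.51%, and Krt7 in 2.71% and 2.59%.

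Where the LB transcripts lay was then asked of clusters formed without the 9 genes and named, where possible, from fixed markers that exclude them. The naive pluripotent-like cluster (588 cells) had 13.3 CPM of Krt8 (11.6 to 15.1), 13.9 CPM of Krt18 (12.2 to 15.9) and 4.36 CPM of Krt19 (3.41 to 5.49). The primitive streak-like cluster (257 cells, with T, Isg15, Rtp4 and Ifi27l2a among its leading genes, the last 3 being interferon-induced) had 178 CPM of Krt8, 195 CPM of Krt18 and 209 CPM of Krt19. The mesoderm-like cluster (368 cells, with Foxf1 and Pitx1 leading) had 442 CPM of Krt8 (428 to 456), 392 CPM of Krt18 and 212 CPM of Krt19, and it held 42.6% of all Krt8 and Krt18 UMIs of the library. A cluster of 319 cells led by Pim2, Fgf5 and Pou3f1, with formative pluripotency markers at a median log2 ratio of 0.95, just under the 1 needed for a name, had 152 CPM of Krt8 and 158 CPM of Krt18. Krt8 and Krt18 in LB were therefore mostly outside the naive-like cells, which held 2.65% of their UMIs.

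The highest keratin level was in 18 cells without a class name, led by Esx1, 3830417A13Rik, Acta1 and Ccl2, with the epidermal keratin Krt14 among their leading genes. They had 3470 CPM of Krt8 (3321 to 3624), 3633 CPM of Krt18 (3481 to 3790) and 1783 CPM of Krt19 (1677 to 1895), and held 24.8% of the library's Krt8 and Krt18 UMIs in 1.01% of its cells. Per cell they had from 4 to 722 Krt8 and Krt18 UMIs, with a median of 160.5. The 3 highest LB cells, all among these 18, held 12.4% of the library's Krt8 and Krt18 UMIs. The counting intervals do not cover such concentration in a few cells. The 18 cells had the highest level of all 9 genes among the LB clusters, including 1257 CPM of Sfn (1168 to 1351), 131 CPM of Krt7, 127 CPM of Cldn4, 263 CPM of Cldn6, 336 CPM of Cldn7 and 100 CPM of Perp. Of the 13 trophoblast markers 6 were raised in them (Gata2, Gata3, Tfap2a, Dlx3, Plac1 and Rhox6) and 2 had no UMI, and Tfap2c was at 13.6 CPM against 31.6 CPM in naive-like cells. The whole trophoblast list summed to 270 CPM in them, below the 471 CPM of the 61-cell cluster described below. In that cluster 7 of the 13 markers had no UMI, Cdx2, Gata2 and Tfap2a among them. The primitive endoderm list summed to 1050 CPM in the 18 cells with 7 of 13 markers at 0 UMIs. In the other LB clusters it summed to 62.5 to 474 CPM. Hand1 was at 524 CPM and T at 0 UMIs. The 4 epidermal markers, Krt14 among them, summed to 56.0 CPM there and to at most 1.04 CPM in every other LB cluster. In the 18 cells 2 of the 4 had no UMI. Over the whole library Krt14 had 41 UMIs, Krt15 8, Trp63 7 and Krt5 0, so the sum is mostly that of 1 gene. The size of this group depended on the clustering, from 18 to 63 cells and from 24.8% to 36.7% of the Krt8 and Krt18 UMIs over the clusterings run. In the clustering that gave 63 cells, the Fgf5-led cluster had 267 cells in place of 319. Per cell the 319 had from 0 to 176 Krt8 and Krt18 UMIs, with a median of 2. How far their keratin levels rest on cells that other clusterings place in the keratin-high group was not tested.

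The claudins did not follow the keratins. In the mesoderm-like cluster, with the second highest Krt8, Cldn4 was at 2.32 CPM (1.42 to 3.58), Cldn6 at 3.13 CPM (2.06 to 4.55) and Cldn7 at 8.23 CPM (6.42 to 10.4). In the primitive streak-like cluster Cldn7 was at 175 CPM (165 to 186), with Cldn4 at 18.4 CPM and Cldn6 at 26.3 CPM. The Fgf5-led cluster of 319 cells held 48.0% of the library's Cldn7 UMIs, at 269 CPM (258 to 279), and 43.0% of its Cldn6 UMIs, at 104 CPM. Cldn4 was highest outside the 18 cells in 2 unnamed clusters that shared raised naive markers, at 75.3 CPM (56.9 to 97.8) in 61 cells led by Slc7a3 and Pmel and at 49.1 CPM (42.7 to 56.2) in 172 cells led by Calb2. Mesoderm-like cells thus had the keratin pair with little claudin, and naive-like cells had claudins and Sfn (79.4 CPM) with little keratin.

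Perp and Sfn differed from each other as well. Perp was at 60.2 CPM in the Fgf5-led cluster, 49.1 CPM in primitive streak-like cells and 15.6 CPM in naive-like cells. Sfn was at 174 CPM in the Fgf5-led cluster and 79.4 CPM in naive-like cells, but at 23.5 CPM in primitive streak-like and 27.2 CPM in mesoderm-like cells. The first 2 did not differ in how widely Sfn was found. In thinned cells it had a UMI in 33.5% of Fgf5-led cells (28.3 to 39.1) and 30.9% of naive-like cells (27.1 to 34.8). Against the naive-like cluster, 5 of 8 members with enough counts were at least 2-fold higher in primitive streak-like cells, where 15.3% of all genes were, and 1, Sfn, was at least 2-fold lower, where 7.40% were. In mesoderm-like cells 3 of 8 (the keratins Krt8, Krt18 and Krt19) were at least 2-fold higher, beside 17.2% of all genes, and 4 (the 3 claudins and Sfn) at least 2-fold lower, beside 8.62%. In the Fgf5-led cluster 7 of 8, all but Cldn4, were higher, beside 10.6%, and 0 lower, beside 5.09%. That count holds for the 319 cells of the clustering used here, and the cluster was smaller in others. In the 18 cells 9 of 9 were higher, beside 31.6%, and 0 lower, beside 9.81%. In the Calb2-led cluster 2 of 8 (Krt7 and Cldn4) were higher, beside 0.89%, and 0 lower, beside 1.42%. In the Slc7a3-led cluster 3 of 7 (the claudins) were higher, beside 17.4%, and 1 (Perp) lower, beside 3.92%. Perp had 5 UMIs in the last of these.

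**Figure D2:**
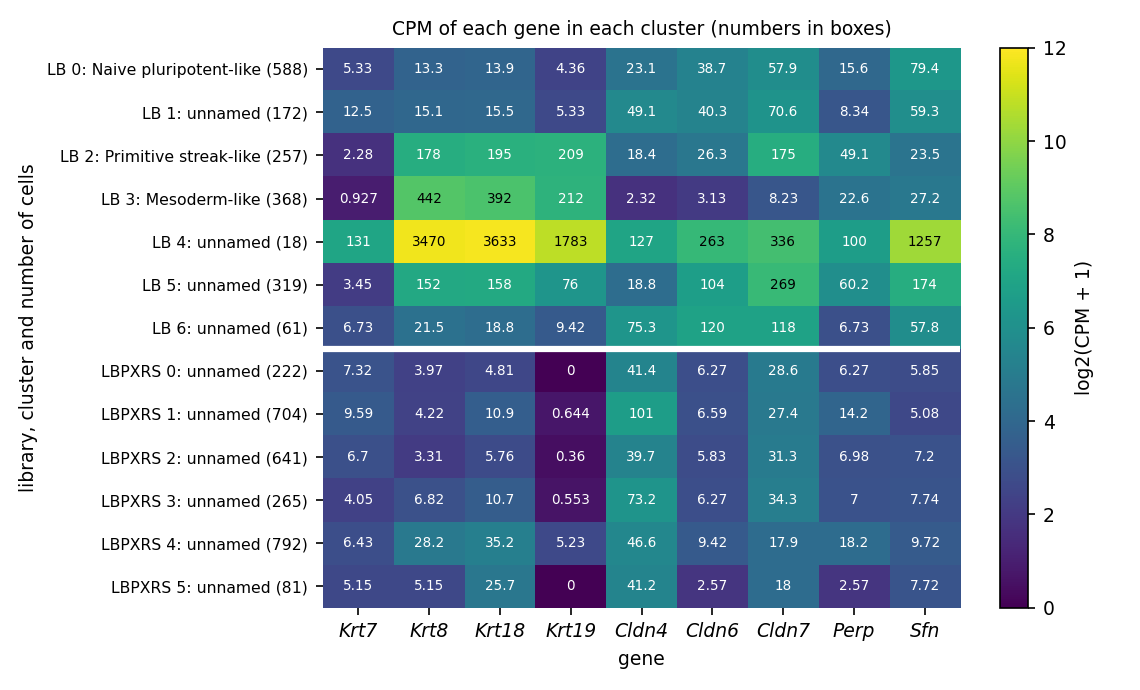
CPM of each gene (columns) in each LB and LBPXRS cluster (rows, with the number of cells); colour is log2(CPM + 1) and the numbers are CPM. The 18-cell LB cluster is the brightest row, the mesoderm-like row is bright for Krt8, Krt18 and Krt19 but dark for the claudins, and Cldn4 is the brightest column in LBPXRS.

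Free RNA in the droplets can give UMIs in cells that do not make a gene, so low shares were set beside genes of other cell types. In naive-like LB cells the mesoderm and streak genes Hand1, Foxf1, Msx1, T and Mesp1 stood at 2.38% to 3.72% of their level in the whole library. Krt19 stood there at 4.08%, Krt8 at 7.07% and Krt18 at 7.57%, and the claudins and Sfn at 52.3% to 103%. Krt7, low throughout, stood at 87.9% and Perp at 51.7%. In thinned cells Krt8 was found in 5.49% of naive-like cells (median depth 27980 UMIs) and 59.6% of mesoderm-like cells (23274 UMIs), and Cldn4 in 10.8% and 0.287%. Without thinning, 51 of 588 naive-like cells (8.67%, 6.53 to 11.2) had both Krt8 and Krt18, and at 5000 UMIs per cell none of 583 did. Krt8 and Krt18 in naive-like cells thus stood somewhat above these genes of other cell types, and Krt19 was near T. The part of free RNA in these keratins was not tested. In LBPXRS no cluster had a class name, so no such reference was used here and its low keratin shares cannot be told apart from background.

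Krt8 and Krt18 were found together in part of the LB cells. After thinning, 15.7% of 1733 LB cells had both (14.01 to 17.5), 11.3% had Krt8 only, 9.23% had Krt18 only and 63.8% had neither. In LBPXRS 0.305% of 2621 cells had both (8 cells, 0.132 to 0.601), 1.41% had Krt8 only and 3.17% had Krt18 only. Summed over unthinned LB cells the pair was close to 1 to 1, with 0.980 Krt18 UMIs per Krt8 UMI (0.9504 to 1.01). The ratio was 0.887 in mesoderm-like and 1.09 in primitive streak-like cells. In LBPXRS the ratio was 1.47 (1.32 to 1.64), and 2.11 (1.76 to 2.54) without the 6 cells described below. As a description across 1733 thinned LB cells of 1 library, log counts of Krt8 and Krt18 had a Pearson r of 0.72, Krt8 and Krt19 of 0.59, and Cldn6 and Cldn7 of 0.29; the cells share their library and the depth was made equal.

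**Figure D3:**
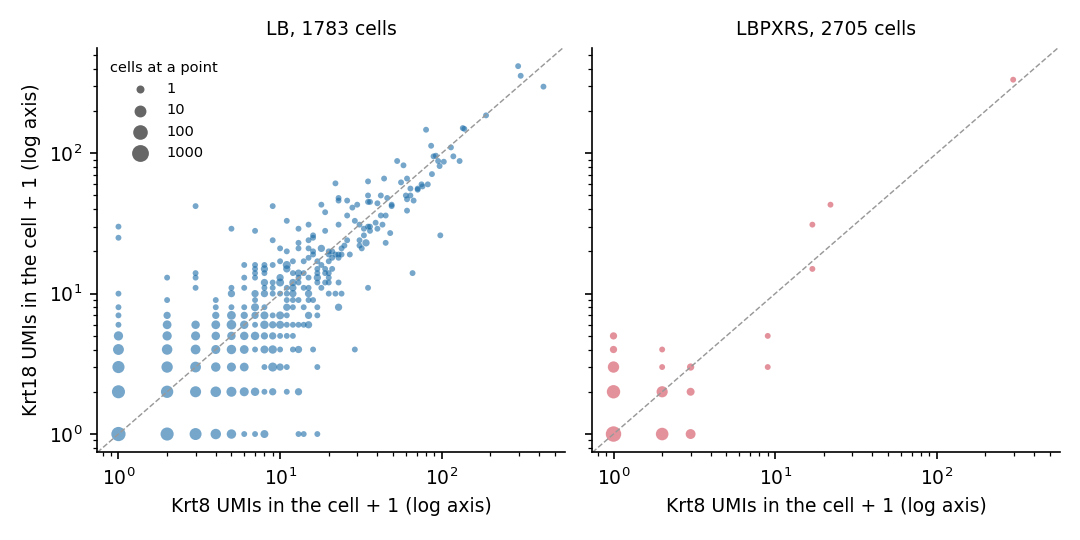
Krt18 against Krt8 UMIs per cell, each plus 1, on log axes, in LB (left) and LBPXRS (right); each point is a pair of counts, its size the number of cells, and the dashed line marks equal counts. LB cells run along the line up to 722 UMIs of both genes together, while in LBPXRS a gap separates the 6 cells with 10 or more from the rest, which have at most 4.

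When LB cells were grouped by their Krt8 and Krt18 UMIs of 5000, Krt19 was the member that went with them most. It was found in 7.87% of the 1106 cells with none (6.35 to 9.61), in 53.7% of the 123 cells with 3 to 5 (44.4 to 62.7) and in 85.5% of the 62 cells with 11 or more (74.2 to 93.1). Sfn was found in 23.96%, 22.0% and 45.2% of the same cells, and Cldn7 in 30.2%, 32.5% and 33.9%, with intervals that overlap for Cldn7. Hand1 was found in 5.70%, 37.4% and 67.7%, so the mix of cells changes along these groups. It is in the mesoderm list used here, but stood at 357 CPM in the mesoderm-like cluster and at 524 CPM in the 18 unnamed cells. The intermediate filament gene Vim was found in 31.8%, 69.9% and 66.1%, and the adhesion gene Epcam in 54.5%, 39.0% and 50.0%.

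**Figure D4:**
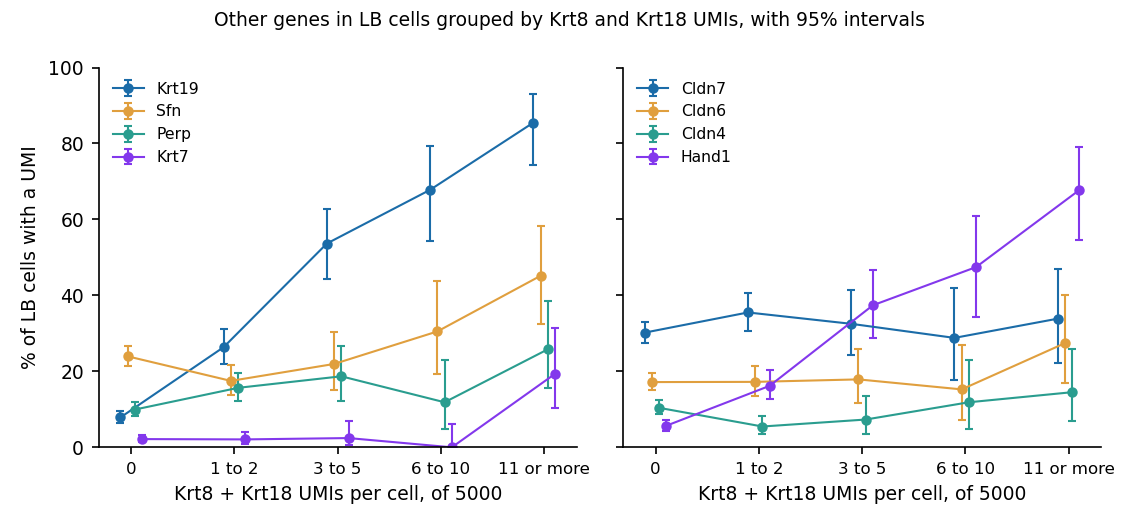
Share of thinned LB cells with at least 1 UMI of other genes (y axis, %) against their Krt8 and Krt18 UMIs of 5000 (x axis, 5 groups); bars are 95% Clopper-Pearson intervals. Krt19 and Hand1 go from under 10% to 85.5% and 67.7%, and Cldn7 stays between 28.8% and 35.5%.

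Outside the 9 genes, those whose thinned counts were most like the summed Krt8 and Krt18 counts across 1733 LB cells were Lgals1 (Pearson r 0.56), Tpm1 (0.55), Tagln (0.49), Serpinh1 (0.48), Cald1 (0.47), Hand1 (0.46), Actg1 (0.45) and Tubb6 (0.44). Lgals1 is a galectin, Tpm1, Tagln, Cald1 and Actg1 are actin cytoskeleton genes, and Serpinh1 is a collagen chaperone. Among naive-like LB cells alone the highest r was 0.17. In LBPXRS the values were lower, with Lgals3 at 0.19 and Cryab, Abhd5, Ctsd, Csrp1, Actg1, Pdlim7 and Atxn10 between 0.11 and 0.13, and without the 6 cells described below the highest was 0.10 (Tpmt). Values this low in sparse counts are no finding. For Cldn4 in LBPXRS the most like genes reached r of 0.25 (Apoe and Aqp3), 0.24 (Fabp3) and 0.22 (Cyba), across 2621 thinned cells. For Cldn7 in LB the highest were Pim2 at 0.31 and, at 0.24, Igfbp3 and Epcam, the last being a known claudin partner.

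In LBPXRS most Krt8 and Krt18 UMIs came from 6 cells. Of 2705 cells 2260, or 83.5%, had no Krt8 or Krt18 UMI, 6 cells had 10 or more, and no cell had between 5 and 9. These 6 cells held 59.2% of the library's 1334 Krt8 and Krt18 UMIs, and 1 cell alone held 629, or 47.2%. In LB 293 cells (16.4%) had 10 or more and held 86.3% of 16912 UMIs, and the highest cell held 4.27%. It took 49 LB cells and 2 LBPXRS cells to reach 50% of the pair's UMIs, but 131 LB and 363 LBPXRS cells for Cldn4. Without the 6 cells, LBPXRS was at 3.38 CPM of Krt8 (2.90 to 3.92), 7.14 CPM of Krt18 (6.43 to 7.90) and 0.599 CPM of Krt19 (0.407 to 0.851), and 0.0765% of thinned cells (2 of 2615) had both Krt8 and Krt18. Cldn4, Cldn6, Cldn7, Perp, Sfn and Krt7 moved little, Cldn4 to 61.0 CPM. The counting intervals treat UMIs as independent and do not cover such concentration in 1 cell.

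**Figure D5:**
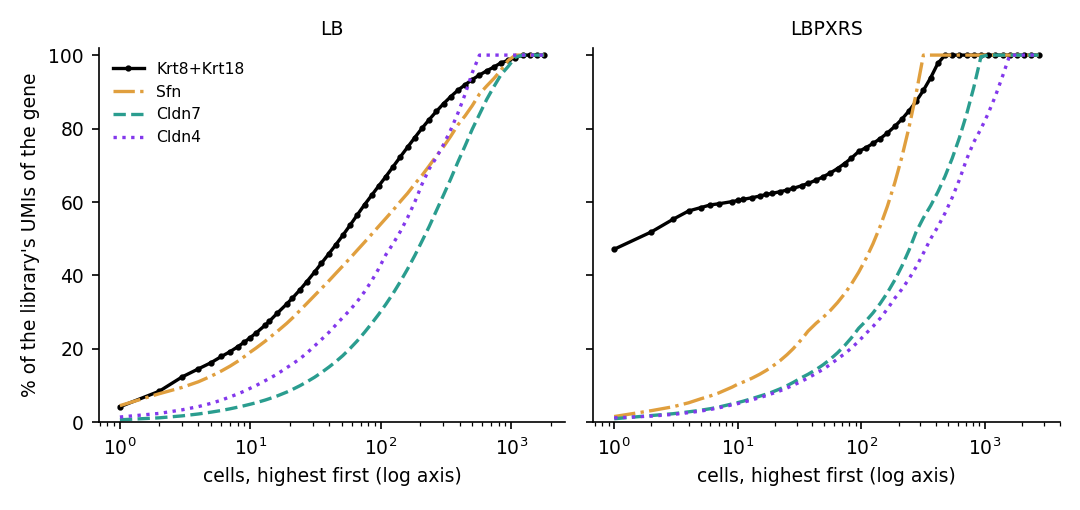
Cumulative share of the UMIs of Krt8 and Krt18 together, Sfn, Cldn7 and Cldn4 (y axis, % of the library's UMIs of the gene) over cells ordered from the highest (x axis, log scale), in LB (left) and LBPXRS (right). The first LBPXRS cell brings the keratin curve to 47.2%, against 4.27% in LB, while the first cell of the other genes holds between 0.715% and 4.57%.

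The 6 cells, picked out after their values were seen, carried different markers. The first had 35060 UMIs with 296 of Krt8, 333 of Krt18, 53 of Krt19, 40 of Cldn4, 14 of Cldn7, 9 each of Krt7 and Perp, and 6 of Sfn. It held 53 of the library's 87 Krt19 UMIs and its highest Cldn4 count. Its trophoblast markers summed to 3594 CPM, with 83 UMIs of Rhox9, 13 of Rhox6, 12 of Trap1a and 10 of Gata2, against a median of 210 and a highest value of 2593 CPM among 2615 other LBPXRS cells of at least 5000 UMIs. Cdx2, a defining trophoblast factor, had 0 UMIs, and the naive markers summed to 314 CPM against a lowest value of 818 CPM in the other cells. Its mitochondrial share was 0.354%, under the 0.5% reached by all but 168 LBPXRS cells.

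A further 3 cells, with 30, 12 and 10 Krt8 and Krt18 UMIs, had a different set. Their 13 primitive endoderm markers, among them the basement membrane genes Sparc, Col4a1 and Lama1, summed to 20120, 16633 and 22864 CPM, where the highest of the 2615 other cells had 3853 CPM and the median was 487. Sparc had 172, 90 and 140 UMIs in them, Gata4 1, 1 and 2, Gata6 1, 0 and 5 and Sox17 1, 0 and 4. Their naive markers summed to 940, 211 and 398 CPM, against a lowest value of 818 CPM in the other cells. None had a Cldn4, Krt7 or Sfn UMI, and 1 had 3 Krt19 UMIs. The remaining 2 cells, with 63 and 46 Krt8 and Krt18 UMIs, had naive marker sums of 5364 and 6887 CPM, within the range of the others, and 0 Krt19 UMIs. In the first of them 129 of 131 naive marker UMIs were Dppa5a, and its 46 Sparc UMIs made up all of its primitive endoderm markers. The second had 8 of the 12 naive markers. The primitive endoderm markers of these 2 cells summed to 1884 and 1405 CPM, above the 1003 CPM that marks the 95th percentile of the other cells.

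These cells carried the marks of their own library. Ftl1-ps1 took 0.295% of their Ftl1 and Ftl1-ps1 UMIs (9 UMIs beside 3038 of Ftl1), near the 0.410% of LBPXRS and far from the 47.6% of LB, none had a Y-linked UMI, none shared a barcode with LB and Scrublet marked none as a doublet. When both libraries were clustered together without the 9 genes, 1 cluster of 592 LB cells took in 4 LBPXRS cells, and all 4 were among the 6. Most of its LB cells were Fgf5-led (317) or primitive streak-like (244), and it held all 18 cells of the LB cluster highest in keratins. Primitive endoderm markers summed to 11164 CPM in the 4 cells against 191 CPM in these LB cells, and trophoblast markers to 1759 against 99.5. The 2 pooled sums come from different cells. Trophoblast markers were at 3594 CPM in the first cell and at 0, 316 and 265 CPM in the other 3. Primitive endoderm markers were at 570 CPM in the first cell. Streak markers stood at 0 against 648 CPM, formative at 52.9 against 620, naive at 450 against 1163 and mesoderm, the closest of these, at 132 against 177. T and Hand1 had 0 UMIs in all 6.

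Among the LBPXRS clusters, none of which had a class name, the one of 792 cells led by Id3, Sct and Cryab held 63.6% of the Krt8 and Krt18 UMIs, at 63.4 CPM. Of the 6 cells 5 were in it, and without them it stood at 7.83 CPM, the lowest of the 6 clusters. The others then stood between 8.78 CPM and 30.9 CPM, the last in 81 cells with a median of only 3382 UMIs. Cldn4 was spread more evenly, from 39.7 CPM (36.4 to 43.1) in 641 cells led by Chac1 and Trib3 to 101 CPM (96.1 to 107) in 704 cells led by Gata2, which held 44.2% of its UMIs. There 38.2% of thinned cells had Cldn4, at a median depth of 19660.5 UMIs, against 16.7% in the Chac1-led cluster at 21161. Cldn7 lay between 17.9 and 34.3 CPM over all 6 LBPXRS clusters, Sfn between 5.08 and 9.72 CPM and Krt7 between 4.05 and 9.59 CPM. Perp was highest in the Id3-led cluster, at 18.2 CPM (15.95 to 20.6), and 17.4 CPM without its 5 high cells.

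Because LB holds several cell types, LBPXRS was also set against the naive-like LB cells alone. Cldn4, Cldn6 and Sfn kept nearly the same distance: Sfn had 79.4 CPM in naive-like LB cells against 7.22 in LBPXRS (log2 ratio -3.29), Cldn6 38.7 against 7.02 (-2.31) and Cldn4 23.1 against 61.7 (1.38). This reference is the 588-cell cluster alone, with naive markers at 6230 CPM. In the unnamed Calb2-led and Slc7a3-led LB clusters these markers summed to 7485 and 7275 CPM, and Cldn4 was at 49.1 and 75.3 CPM. A higher Cldn4 in LBPXRS thus does not hold against every LB cluster with raised naive markers. Cldn7 had 57.9 CPM in naive-like LB cells against 26.8 in LBPXRS (-1.08). Krt8 and Krt18 then differed little, with Krt8 at 13.3 CPM against 10.4 (-0.32) and Krt18 at 13.9 CPM against 15.3 (0.13, the opposite direction), and Perp had 15.6 CPM against 11.7 (-0.39). Krt19 stayed lower in LBPXRS, at 4.36 CPM against 1.68, 2.60 times as high in naive-like LB cells (1.88 to 3.59). Its level in naive-like LB cells was 4.08% of that in the whole library, near the 3.72% of T. The part of free RNA in this ratio was not tested. Of 7 members with at least 10 CPM, 3 were then at least 2-fold lower (Sfn, Cldn6 and Cldn7), where 6.75% of 7271 genes were, and 1 higher, where 9.34% were. Cldn7 was only just past that threshold. It lies on chromosome 11, where 23.1% of 707 counted genes were at least 2-fold lower in LBPXRS against all LB cells. With the 6 LBPXRS cells also left out, Krt8 was at -1.70, Krt18 at -0.88 and Krt19 at -1.75, and 4 members, Krt8 now among them, were at least 2-fold lower. These cells were picked by their Krt8 and Krt18 UMIs and left out of LBPXRS alone. Lower Krt8 and Krt18 ratios thus follow by construction. The naive-like LB cells kept their 2 cells with 10 or more such UMIs, and the count of 4 is no further support. The direction of Krt18 rested on 1 cell: without the LBPXRS cell that held 333 of its 794 UMIs, Krt18 was at 8.90 CPM, below the 13.9 CPM of naive-like LB cells.

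Related genes were counted from lists. Of 36 junction, polarity and desmosome genes, 24 had at least 10 CPM in either library; 9 of them were at least 2-fold lower in LBPXRS (10.4% of all genes were) and 2 higher (7.98%), with a median log2 ratio of -0.73 beside -0.17 over all genes. The desmosome plakophilin Pkp2 was at 29.3 CPM in LB and 2.87 CPM in LBPXRS (log2 ratio -2.97), and its relative Pkp3 at 5.17 and 20.2 CPM (1.78). Epcam was at 177 and 22.7 CPM (-2.91), the epithelial GTPase Rab25 at 26.5 and 3.20 CPM (-2.71) and the sorting adaptor Ap1m2 at 19.1 and 4.01 CPM. E-cadherin, Cdh1, differed less, at 64.7 CPM (62.4 to 67.1) and 35.8 CPM (34.2 to 37.5; -0.84). It lies on chromosome 8, whose 455 counted genes had a median log2 ratio of -0.61, with 22.2% at least 2-fold lower. Against naive-like LB cells Epcam was at -2.90 and Pkp2 at -3.22, close to their ratios against all LB cells.

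Of 21 regulators of simple epithelial genes 7 had enough counts, with 4 at least 2-fold higher (7.98% of all genes were) and 1 lower (10.4%), and a median of 1.16 beside -0.17. Against naive-like LB cells 3 of 8 were higher (9.34% of all genes) and 2 lower (6.75%), with a median of 0.70. The lower ones were Esrp1 (-2.91) and the grainyhead factor Grhl2, at 14.7 CPM in naive-like LB cells and 5.63 CPM in LBPXRS (-1.25). The zinc finger factor Klf4 was at 38.1 CPM in LB and 212 CPM in LBPXRS (2.45), Gata2 at 1.69 and 26.8 CPM (3.37), the grainyhead factor Grhl3 at 7.69 and 28.7 CPM (1.77) and Tfap2c at 21.5 and 49.1 CPM (1.16, and 0.62 against naive-like LB cells, under the 2-fold threshold). The splicing regulator Esrp1 was at 14.1 and 1.04 CPM (-2.89). Among the other intermediate filament genes, 3 of 7 were at least 2-fold lower (10.4% of all genes were) and none higher (7.98%): Vim at 152 and 19.8 CPM (-2.88), Nes at 16.9 and 3.13 CPM (-2.12) and Lmna at 24.05 and 9.396 CPM (-1.27). Lmnb2 was at -0.72 and Plec, which links keratins to junctions, at -0.75. Against naive-like LB cells Vim was at -1.70 and Lmna at -1.20, while Nes, at -0.17, was no longer past 2-fold.

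Other p53 targets were counted beside Perp and Sfn. Of 12 such genes with enough counts, none was 2-fold higher or lower, with a median log2 ratio of 0.15 and the largest at -0.62 (Ccng1), 0.55 (Mdm2), 0.51 (Bbc3), 0.47 (Trp53inp1) and -0.46 (Aen). Ccng1 lies on chromosome 11, whose genes had a median of -0.63. Against naive-like LB cells Perp, at -0.39, differed by less than Bbc3 (0.60), Trp53inp1 (0.57) and Mdm2 (0.52), and Sfn, at -3.29, by more. Few other keratins and claudins were present. Of 53 keratin genes 34 had a UMI and 5 reached 10 CPM, among them Krt10 at 12.9 CPM in LB and 23.5 CPM in LBPXRS (0.82) and Krt42 at 17.1 and 17.3 CPM (0.02). Of 32 claudin genes 20 had a UMI and 4 reached 10 CPM, the fourth beside the members being Cldn3 at 10.1 and 2.01 CPM (-1.88). Cldn4 was thus the only claudin with enough counts that was higher in LBPXRS.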

How the data were processed

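The authors deposited raw UMI counts per gene and cell barcode for 2 libraries, whose headers name Cell Ranger 4.0.0, with mm10 as the build per the submitters' processing notes and 10x Genomics 3′ version 2 chemistry per the labels' protocols. Their annotation and cell calling settings are not given in the sources used here. Of 2008 LB and 3111 LBPXRS barcodes, 225 and 406 were left out. Kept cells held 45490517 UMIs in LB and 51832444 in LBPXRS. Gene positions came from GENCODE M21 on GRCm38, in which 32158 of 32285 identifiers (99.6%) were found, and promoters from RefSeq GRCm38.p6, where 7 of the 9 members were matched.

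From the counts, UMIs were summed over kept cells and scaled to 1000000 for CPM. Intervals are exact (Poisson and Clopper-Pearson). Shares were taken after thinning to 5000 UMIs, which left out 50 LB and 84 LBPXRS cells. Each library was clustered with scanpy 1.11.5 (2000 variable genes, 30 components, 15 neighbours, Leiden resolution 0.5). A cluster took a class name where at least 3 of the class's markers were raised (5 CPM and 2-fold), more than of any other class, with a median log2 ratio over all of them of at least 1 and leading genes not of another class; these thresholds were set after the files were seen. Scrublet marked 12 LB and 14 LBPXRS cells, which were kept. TMM factors came from edgeR 4.0.16. The ratio and call rule were tested on simulated data.

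The members, the gene lists and the naming rule (all 9 members, the 5 largest log2 ratios per list, the 8 most correlated genes, and Cdh1, Epcam and Vim) were chosen with earlier results of these data known. The genes most like Cldn4 and Cldn7, the LBPXRS cells with 10 or more Krt8 and Krt18 UMIs and their marker genes, and the joint clustering were added after the values were seen.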

Additional observations from a re-analysis of the deposited data

How the results depend on the processing

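No paired analysis was possible because each condition has 1 library and no replicate numbers are shared. Over 14 alternatives the count of members at least 2-fold lower in LBPXRS was 7 in all but those restricted to naive pluripotent-like LB cells, with 3, or 4 where the 6 high LBPXRS cells were also left out; Cldn4 was higher in each. Leaving out LB cells other than naive-like ones turned the log2 ratio of Krt18 to 0.13. With no filter on low genes, 14 junction genes were at least 2-fold lower in place of 9. TMM scaling moved the median over all genes from -0.17 to -0.01 and the shares of genes higher and lower from 7.98% and 10.4% to 10.2% and 7.80%, and kept the direction of each of the 9 genes. Leaving out cells with under 0.5% mitochondrial UMIs, the highest LBPXRS keratin cell among them, took Krt8 to -5.07 and Krt18 to -4.24.

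Depth sets shares. The share of LB cells with both Krt8 and Krt18 was 11.2% at 3000 UMIs, 22.5% at 10000 and 35.1% without thinning, and that of LBPXRS cells 0.757% at 10000 UMIs, 1.63% without thinning and 0.0765% without the 6 high cells. The LB cluster highest in the pair held 36.4% of its UMIs at Leiden resolution 1 (59 cells), 36.7% with the members kept for clustering and 36.6% with doublets left out. The LBPXRS one held 60.3% at resolution 1 and 68.2% with the members kept. Settings that left out LBPXRS cells by their keratin UMIs, the 18 LB cells or the UMIs of chromosomes 8, 11 and Y from the totals are alternatives added once the values had been seen. Leaving out LBPXRS cells by their keratin UMIs lowers the Krt8 and Krt18 ratios by construction.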
